A study of Mus musculus with 8 samples.

Results

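The 10 genes described here encode 9 mouse Toll-like receptors and Cd180, a related receptor. They were taken by gene symbol from the platform's annotation, each through the probe set that carried that symbol alone, and each had 1 such probe set, so no choice between probe sets had to be made. They are 10 of 19938 genes measured. Tlr1, Tlr2, Tlr4, Tlr6 and Cd180 sit on the cell surface, and Tlr3, Tlr7, Tlr8, Tlr9 and Tlr13 in endosomes. The cells came from the bone marrow of C57Bl/6 mice. Those positive for c-Kit had been given a lentivirus carrying KLF7, a transcription factor of the Krüppel-like family, or a control virus, and 72 hours later the Lin- c-Kit+ Sca-1+ (KLS) cells, which hold blood stem cells and early progenitors, were sorted. Their RNA was amplified and put on 1 array per sample, 4 labelled KLF7 and 4 labelled control. The promoter of the virus, the insert of the control virus, the age of the mice and whether arrays came from separate animals or cultures could not be learned from the labels. The p-values therefore reflect the scatter of these 8 arrays alone, which may be technical.

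Toll-like receptors recognise microbial molecules. The surface receptors bind lipopeptides and lipopolysaccharide, while those in endosomes bind nucleic acids and reach that compartment with the help of the chaperone encoded by Unc93b1. Toll-like receptors other than TLR3 signal through the adaptor MyD88 and the IRAK kinases towards NF-kB and the interferon regulatory factors. Blood stem and progenitor cells are known to carry some of these receptors, and their ligands can steer such cells towards myeloid fates.

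None of the 10 genes passed the test over all genes, while all 10 had a higher mean level on the KLF7 arrays than on the control arrays. Such a higher mean was found for 50.4% of all 19938 genes, and without both arrays numbered 4, which stood apart, it held for 8 of the 10. Tlr9, the receptor for unmethylated CpG DNA, had a difference of 0.72 log2 (1.65-fold higher) and was the 1 member whose KLF7 and control arrays did not overlap. Tlr13 (0.91 log2), Cd180 (0.59), Tlr2 (0.54) and Tlr8 (0.50) differed by more than 0.49 as well, with arrays that overlapped. Tlr4, the receptor for lipopolysaccharide, and Tlr6 were at 0.04 and 0.06.

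KLF7 belongs to a family of factors that bind CACCC boxes and GC-rich elements, so the 250 bases before the annotated starts of the members are shown for the gene whose groups did not overlap (Tlr9), the gene with the largest difference (Tlr13), a gene with a difference near 0 (Tlr6) and the gene with GC boxes (Tlr2). The windows are RefSeq's, of build GRCm38.p6, printed 5′ to 3′ on the strand of the gene, and capitals mark the motifs CACCC (the CACCC box, GGGTG on the other strand), GGGCGG (the GC box) and GAGGAAGT (bound by the myeloid factor PU.1). Both strands were searched, and no matches of different motifs overlapped in these windows.
Tlr9 (chr9:106222348-106222597, plus strand): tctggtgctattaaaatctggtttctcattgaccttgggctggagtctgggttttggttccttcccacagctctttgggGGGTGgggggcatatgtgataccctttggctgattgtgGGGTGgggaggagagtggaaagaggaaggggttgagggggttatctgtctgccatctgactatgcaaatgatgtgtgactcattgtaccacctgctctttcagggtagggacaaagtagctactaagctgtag
Tlr13 (chrX:106143025-106143274, plus strand): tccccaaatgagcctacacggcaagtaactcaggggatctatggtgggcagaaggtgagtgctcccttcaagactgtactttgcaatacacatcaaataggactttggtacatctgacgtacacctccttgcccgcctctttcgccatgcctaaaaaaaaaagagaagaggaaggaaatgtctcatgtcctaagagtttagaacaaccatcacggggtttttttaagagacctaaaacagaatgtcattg
Tlr6 (chr5:64959167-64959416, minus strand): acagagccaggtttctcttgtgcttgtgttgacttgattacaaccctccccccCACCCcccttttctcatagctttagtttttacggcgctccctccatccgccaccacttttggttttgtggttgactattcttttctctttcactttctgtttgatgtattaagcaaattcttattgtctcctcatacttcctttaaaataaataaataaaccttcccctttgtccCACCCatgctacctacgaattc
Tlr2 (chr3:83841609-83841858, minus strand): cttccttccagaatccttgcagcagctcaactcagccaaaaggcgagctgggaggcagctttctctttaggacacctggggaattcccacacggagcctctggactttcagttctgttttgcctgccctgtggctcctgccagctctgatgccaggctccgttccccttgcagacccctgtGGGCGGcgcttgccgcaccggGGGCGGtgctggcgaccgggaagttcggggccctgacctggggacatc
Windows were listed for 8 of the 10 members, 11 windows in all, since Tlr1, Tlr6 and Cd180 have 2 each; Tlr4 and Tlr7 were not matched. CACCC was found in 3 of the 11 windows, of Tlr1, Tlr6 and Tlr9, and so for 3 of the 8 genes, against 52% of all 32851 windows of this length. The 2 Cd180 windows overlap and are nearly the same sequence. The Tlr9 window held it 2 times and so did the Tlr6 window printed, while the other Tlr6 window did not hold it. GGGCGG was found in 1 of the 11, that of Tlr2, against 32.7% of all windows, and GAGGAAGT in 1, of Tlr1, against 2.44%. A match of letters says nothing of binding, and binding was not measured in these samples.

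Values are log2 of the RMA intensity of a probe set, a scale on which a difference of 1 is a doubling. Levels of different genes are not set against each other, because probe sets differ in brightness. Of the 10 members, 5 (Tlr1, Tlr3, Tlr6, Tlr7 and Tlr8) lay among the dimmer 50% of genes by mean level, where background limits what an array can show. Both the amplification and the background step of RMA can make differences of dim genes look smaller. In bulk samples fewer cells of a type and less RNA per cell cannot be told apart. Every difference below is that of arrays labelled KLF7 minus arrays labelled control, from a fit of all 19938 genes in limma, and adjusted p-values are Benjamini-Hochberg over all of them.

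The arrays are named by their labels. Klf7 itself was at 11.43, 10.19, 11.05 and 10.52 on KLF7 arrays 1 to 4, against 8.53, 10.28, 9.35 and 7.98 on control arrays 1 to 4. It had a difference of 1.76 log2 (SE 0.46, adjusted p 0.327 in limma), and 1 of 16 comparisons of a KLF7 array with a control array went the other way. Of 8 measured stem and progenitor markers, 6 had a positive difference and 2 a negative one, with a median of 0.13. Cd34 was at 9.27 to 10.71 on the KLF7 arrays and 9.53 to 10.95 on the control arrays. Hlf, a transcription factor of stem cells, was named here after its values were seen. It was the 1 marker of 8 at an unadjusted limma p under 0.05, a share near the 8.21% of all genes. Its KLF7 arrays, at 6.29 to 7.17, lay below its control arrays, at 7.25 to 8.03 (difference -0.90, SE 0.23, adjusted p 0.327 in limma). Groups were apart in that direction for 2.38% of all genes. Ly6a, which encodes Sca-1, is not analysed here. The arrays numbered 4 stood apart in both groups. Kit, which encodes c-Kit, was at 7.85 on KLF7 4 and at 8.33 on control 4, and at 9.57 or more on the other arrays, and the intensities of 6 mast cell and basophil markers summed to 792 and 537 there, against 4912 or more elsewhere. Many of the differences below are therefore also given without single arrays.

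**Figure D1:**
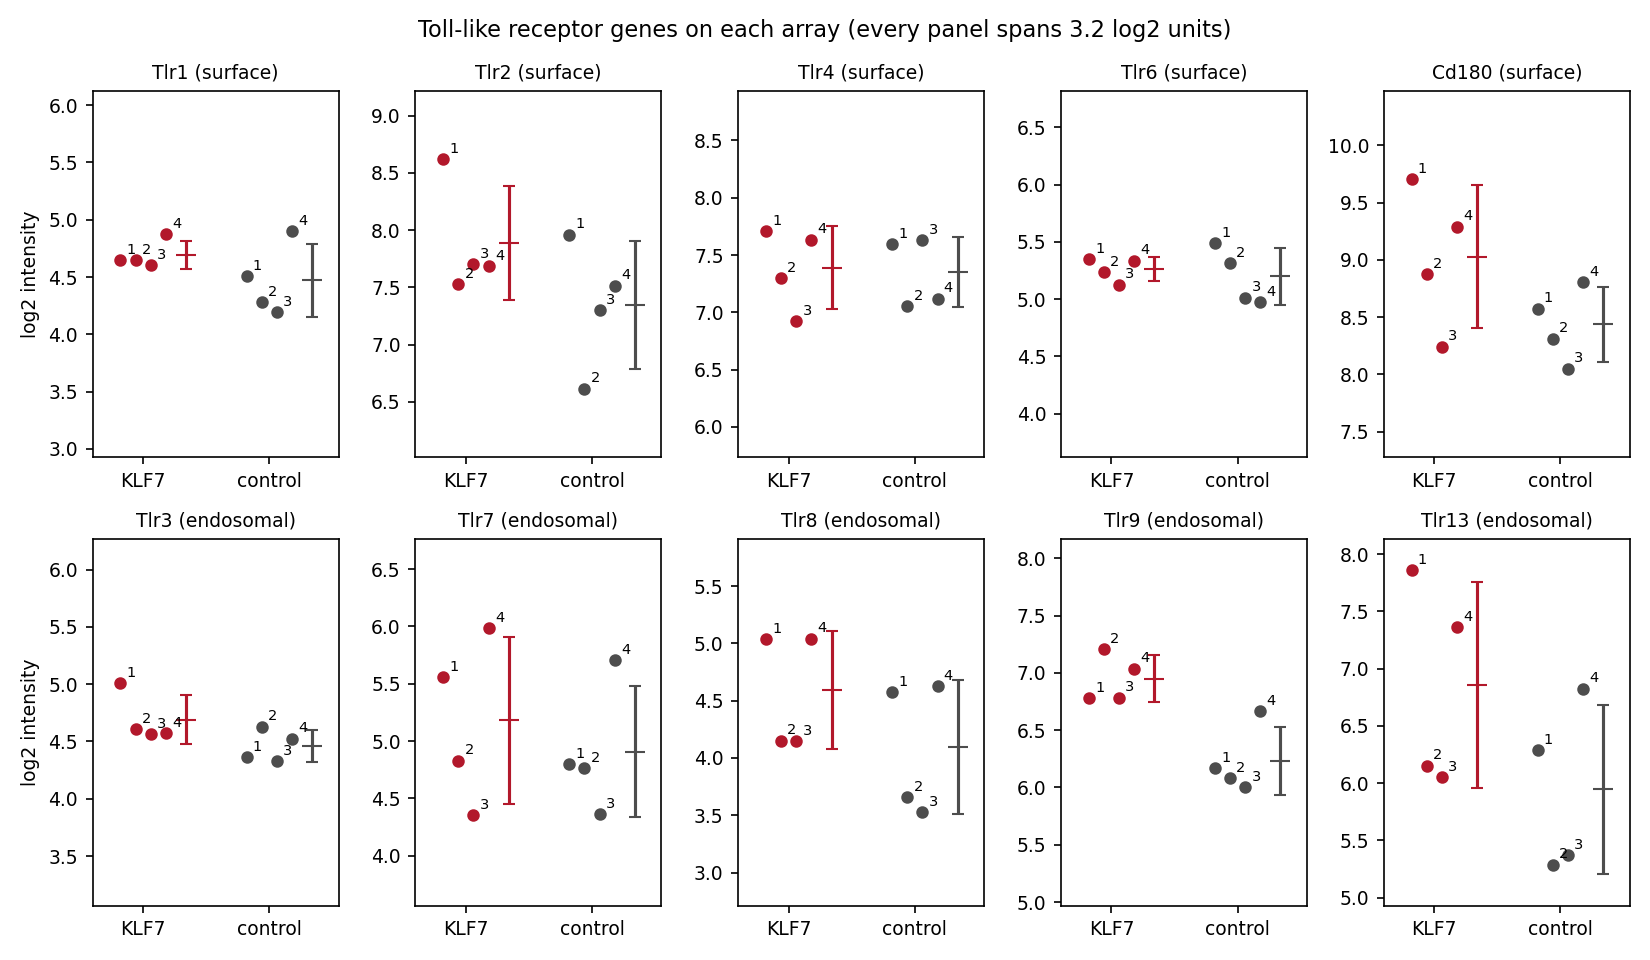
Log2 intensity (vertical axis) of the 10 genes on each array, KLF7 arrays in red and control arrays in grey, with array numbers beside the points and the mean and SD (n = 4 each) as a bar at the right of each group. The KLF7 arrays of Tlr9 all lie above its control arrays, and in the other panels the groups overlap.

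Among the surface receptors, Tlr2 encodes the shared chain of the lipopeptide receptors. It was at 8.62, 7.53, 7.70 and 7.69 on KLF7 arrays 1 to 4, against 7.96, 6.62, 7.30 and 7.52 on control arrays 1 to 4. KLF7 1 was far above the other KLF7 arrays and control 2 was the lowest of all 8, and the groups overlapped because control 1 lay above 3 of the KLF7 arrays. The difference was 0.54 (SE 0.32, adjusted p 0.747 in limma), and it was 0.29 without KLF7 1 and 0.29 without control 2.

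TLR1 and TLR6 pair with TLR2, and the choice between them sets whether triacylated or diacylated lipopeptides are bound. Tlr1 was at 4.65, 4.65, 4.60 and 4.87 on KLF7 arrays 1 to 4, against 4.51, 4.28, 4.19 and 4.90 on control arrays. Control 4 held the highest value of all 8, and the other control arrays lay below every KLF7 array. The difference was 0.22 (SE 0.16, adjusted p 0.813 in limma), 0.37 without control 4 and 0.13 without control 3. Tlr6 was at 5.35, 5.24, 5.13 and 5.34 on the KLF7 arrays, against 5.49, 5.32, 5.01 and 4.97 on the control arrays, with a difference of 0.06 whose 95% confidence interval ran from -0.25 to 0.38. The Tlr6 groups overlapped on both sides, and the control arrays spread more widely. Tlr1 and Tlr6 are close relatives in sequence, and whether their probes read each other's transcript was not tested.

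TLR4 binds lipopolysaccharide together with MD-2, the product of Ly96. Tlr4 was at 7.71, 7.30, 6.92 and 7.63 on KLF7 arrays 1 to 4, against 7.59, 7.05, 7.63 and 7.12 on control arrays. Both groups covered nearly the same range, with the lowest value on KLF7 3. The difference was 0.04 (SE 0.23, 95% confidence interval -0.46 to 0.54), and its sign depended on single arrays, from -0.06 without KLF7 1 to 0.20 without KLF7 3.

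CD180 resembles TLR4 outside the cell, lacks the signalling domain inside it, and pairs with MD-1, the product of Ly86. Cd180 was at 9.71, 8.88, 8.24 and 9.29 on KLF7 arrays 1 to 4, against 8.58, 8.31, 8.05 and 8.81 on control arrays. In both groups array 3 was the lowest, and 3 of the 16 comparisons of a KLF7 array with a control array went against the direction of the means. The difference was 0.59 (SE 0.31, 1.51-fold, adjusted p 0.679 in limma), and 0.37 without KLF7 1.

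Among the endosomal receptors, Tlr9 was at 6.78, 7.20, 6.78 and 7.04 on KLF7 arrays 1 to 4, against 6.17, 6.08, 6.00 and 6.66 on control arrays. The lowest KLF7 arrays lay above the highest control array, control 4, and the groups did not overlap. Means were 6.95 ± 0.21 on the KLF7 arrays and 6.23 ± 0.30 on the control arrays (SD, n = 4 each). The difference of 0.72 (SE 0.19, 95% confidence interval 0.31 to 1.13) had an adjusted p of 0.327 in limma over all genes. A two-sided exact permutation test of this gene's 8 values gave p = 0.0286, the smallest that 70 splits allow, with no adjustment for the other genes. Any gene whose groups do not overlap gets that p, so the test restates the separation, found for 5.22% of all genes. Fits that omitted 1 array each gave differences from 0.64 (without KLF7 2) to 0.87 (without control 4), and the unadjusted limma p stayed under 0.05 in each of these fits.

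That 1 of 10 members had groups that did not overlap compares with 5.22% of all 19938 genes, and that 1 of 10, again Tlr9, had an unadjusted limma p under 0.05 compares with 8.21% of all genes (4.65% higher and 3.56% lower). For an adjusted p under 0.05 the count was 0 of 10, and 0% of all genes. The share of members is thus near the background by each of these counts.

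TLR13 recognises bacterial ribosomal RNA in mice. Tlr13 was at 7.86, 6.15, 6.05 and 7.36 on KLF7 arrays 1 to 4, against 6.29, 5.29, 5.38 and 6.83 on control arrays. Arrays 1 and 4 were high and arrays 2 and 3 low in both groups, and control 4 and control 1 lay above KLF7 2 and KLF7 3. The difference was the largest of the 10, 0.91 (SE 0.46, 1.88-fold), but so was the spread, with an SD of 0.90 on the KLF7 arrays and 0.74 on the control arrays, and its 95% confidence interval ran from -0.10 to 1.92. The adjusted p was 0.667 in limma, and the difference was 0.58 without KLF7 1.

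The genes of TLR7 and TLR8 are neighbours on the X chromosome, and TLR7 binds single-stranded RNA. Tlr8 was at 5.04, 4.15, 4.15 and 5.04 on KLF7 arrays 1 to 4, against 4.58, 3.66, 3.53 and 4.63 on control arrays. Arrays 1 and 4 were again higher than arrays 2 and 3 in both groups, with a difference of 0.50 (SE 0.31, adjusted p 0.767 in limma), 0.31 without control 3 and 0.27 when 16 was added to every intensity. Tlr7 was at 5.56, 4.83, 4.36 and 5.99 on the KLF7 arrays, against 4.80, 4.77, 4.36 and 5.71 on the control arrays. Arrays 3 were the lowest and arrays 4 the highest in both groups, and the difference of 0.27 (SE 0.36) went to 0.01 without KLF7 4 and to 0.55 without KLF7 3.

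TLR3 binds double-stranded RNA and signals through TRIF, the product of Ticam1. Tlr3 was at 5.01, 4.61, 4.56 and 4.57 on KLF7 arrays 1 to 4, against 4.37, 4.63, 4.33 and 4.52 on control arrays. KLF7 1 stood above the rest and control 2 above the other 3 KLF7 arrays. The difference was 0.23 (SE 0.13, adjusted p 0.751 in limma), and 0.12 without KLF7 1. Of 3 further Toll-like receptor genes looked for, Tlr12 was measured, with a difference of 0.03 (SE 0.13), and Tlr5 and Tlr11 are not analysed here.

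**Figure D2:**
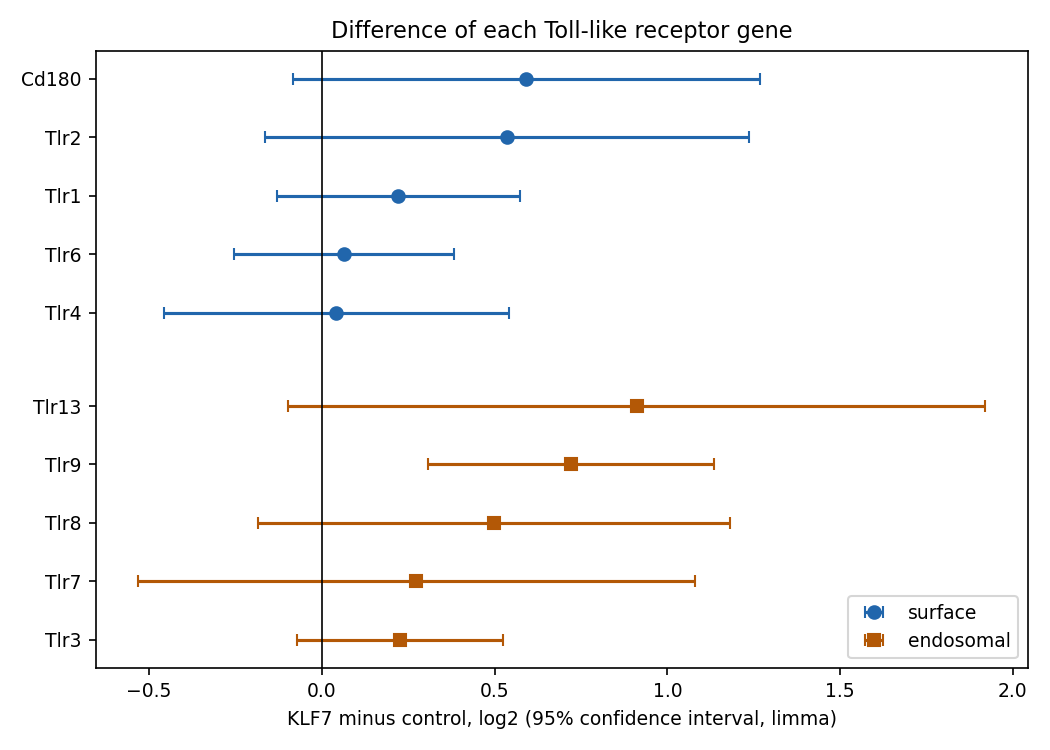
Difference of each gene, KLF7 minus control in log2, on the horizontal axis, with its 95% confidence interval from limma; circles are surface and squares endosomal receptors. All 10 points lie at or above 0.04, and the interval of Tlr9 (0.31 to 1.13) is the 1 that does not include 0.

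Set side by side, the 5 endosomal receptors had a median difference of 0.50 (range 0.23 to 0.91) and the 5 surface receptors 0.22 (range 0.04 to 0.59), against 0.0019 over all genes. The classes overlapped, since Cd180 and Tlr2 lay above Tlr8, Tlr7 and Tlr3, and the difference between the classes was given no test. As a description, each gene was centred on its own mean over the 8 arrays and averaged within its class. The endosomal receptors then averaged 0.66, 0.00, -0.21 and 0.61 on KLF7 arrays 1 to 4, against -0.15, -0.51, -0.67 and 0.28 on control arrays. The surface receptors averaged 0.50, 0.01, -0.19 and 0.26 on the KLF7 arrays, against 0.12, -0.39, -0.27 and -0.04 on the control arrays. Both classes were highest on KLF7 1 and KLF7 4, and in neither did the groups separate.

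**Figure D3:**
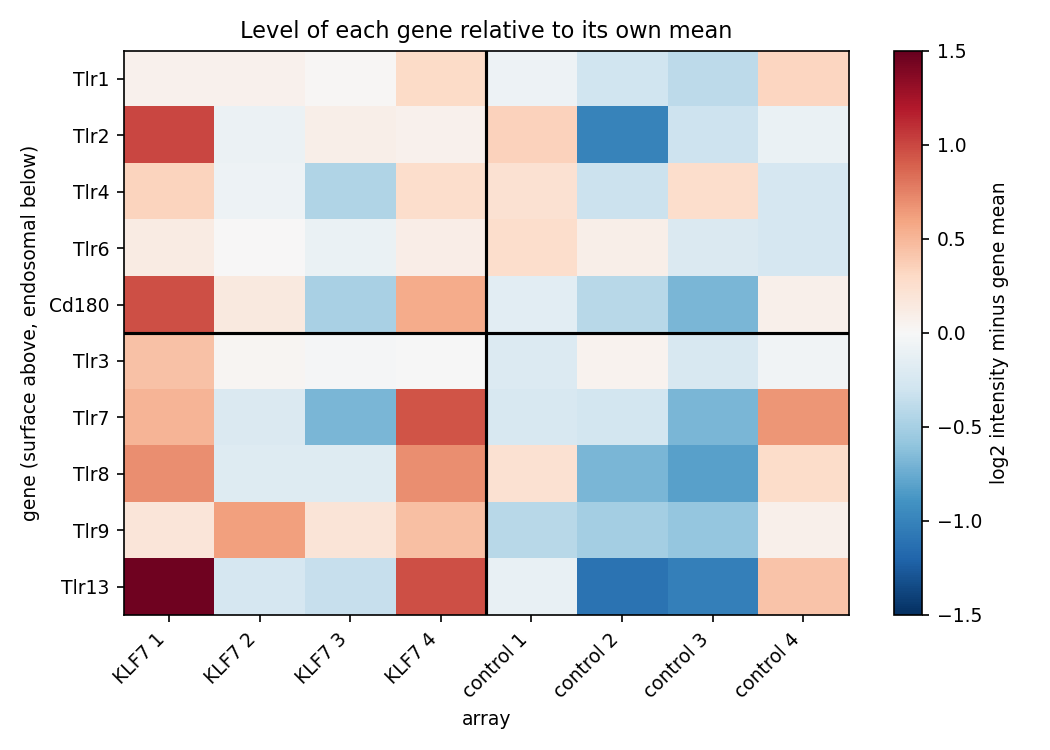
Level of each gene (rows, surface receptors above the line and endosomal below) on each array (columns, KLF7 left of the line and control right), coloured by log2 intensity minus the gene's mean. Tlr13, Tlr8, Tlr7 and Cd180 are high on KLF7 1 and KLF7 4, while Tlr9 is above its mean on all 4 KLF7 arrays. Each of these genes is also above its own mean on control 4.

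Markers of other cell types also differed between the arrays. The intensities of 11 measured monocyte and macrophage markers (of 12 listed), which include Lyz2, Itgam and Ccr2, summed to 8222, 4419, 4976 and 7569 on KLF7 arrays 1 to 4, against 4903, 2903, 3257 and 6242 on control arrays. Arrays 1 and 4 were thus the highest in each group for these markers too. The sums of the 11 dendritic cell markers ran from 5240 to 12844 on the KLF7 arrays and from 2054 to 6458 on the control arrays. Most of each sum came from 3 bright genes, Cd74, H2-Aa and H2-Ab1. Differences of single genes in that list ran from -0.19 to 1.405, with 3 of the 11 negative. Among the dimmer 50% of genes were 3 of the 11 monocyte and macrophage markers and 5 of the 11 dendritic cell markers. In each list the KLF7 mean was above the control mean for 8 of the 11 genes, against 50.4% of all genes. At an unadjusted limma p under 0.05 were 4 monocyte and macrophage and 5 dendritic cell markers, all higher. That compares with 4.65% of all genes in that direction, and none passed over all genes. Groups were apart, KLF7 higher, for 1 and 2 markers, against 2.83% of all genes. The 2 dendritic cell markers apart were not among the 3 bright genes. The 8 measured B cell markers summed to 260 to 298 on the KLF7 arrays and to 265 to 382 on the control arrays. The part of such cells in the levels of the receptors, or of the pathway genes that follow, was not tested.

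By a rule that took the 3 members with the smallest p, the genes most like them were sought as those outside the family whose centred levels lay closest on average over the 8 arrays. For Tlr9 these were Myl12a, a regulatory light chain of non-muscle myosin (mean absolute difference 0.07 log2), and Efhd2, a calcium-binding protein (0.10). The nearest to Tlr13 were Gpnmb, a glycoprotein of macrophages and lysosomes (0.13), and Lgmn, an endosomal protease that also cleaves Toll-like receptors (0.18). For Cd180 the nearest was Wdfy4, a protein needed for cross-presentation in dendritic cells (0.10). Likeness of this kind is a description over the same 8 arrays.

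The partners that load, carry or cleave the receptors are next. The KLF7 mean was the higher one for 13 of 17 genes, and the median difference was 0.44 (0.23 without control 3). An unadjusted p under 0.05 was reached by 4, each with a positive difference, against 4.65% of all genes in that direction, while none passed over all genes. Groups were apart for 0 of the 17, against 5.22% of all genes. Ly96, whose product MD-2 completes the lipopolysaccharide receptor, was at 4.41, 5.20, 4.85 and 5.41 on KLF7 arrays 1 to 4, against 3.62, 3.99, 4.09 and 4.45 on control arrays. Control 4 lay just above KLF7 1, the 1 overlap between the groups. The Ly96 difference was 0.94 (SE 0.23, 1.91-fold, adjusted p 0.325 in limma), although Ly96 is among the dimmer 50% of genes and the difference was 0.55 with 16 added to every intensity. Its partner Tlr4 did not share this difference (0.04, as given above), and that contrast between the 2 genes was not tested.

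The other partners of the surface receptors showed small means against wide spreads. Cd14, the co-receptor that hands over lipopolysaccharide, differed by 0.17 (SE 0.51), with a sign that changed without KLF7 1 (-0.21). Ly86, the partner of Cd180, was at 7.51, 8.01, 6.10 and 8.61 on KLF7 arrays, against 7.10, 7.30, 6.04 and 8.58 on control arrays. In both groups its lowest array was number 3 and its highest number 4, and the difference was 0.30 (SE 0.58).

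For the endosomal receptors, Unc93b1, the trafficking chaperone, was at 8.75, 8.66, 8.05 and 9.24 on KLF7 arrays 1 to 4, against 8.63, 8.67, 8.22 and 9.31 on control arrays. The groups covered the same range, and the difference was -0.03 (SE 0.29). Slc15a3 and Slc15a4, transporters of the endolysosome that serve signalling there, differed by 1.03 (SE 0.46) and 0.44 (SE 0.19), and Pld3, a nuclease that degrades single-stranded DNA in that compartment, by 0.45 (SE 0.20). Slc15a3 rests much on KLF7 1, at 10.05 against 7.93 to 8.22 on the other KLF7 arrays, and its difference was 0.54 without that array. Adjusted p-values of these 3 genes in limma were between 0.579 and 0.609. Slc15a3, Slc15a4 and Pld3 had an unadjusted p under 0.05 in 11, 16 and 12 of 24 alternatives.

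Adaptors and kinases just below the receptors showed no common direction, with 9 of 17 measured genes higher, 8 lower and a median of 0.06. Irak1, a kinase that MyD88 recruits, had the smallest p of this list and a negative difference. It was at 7.75, 7.77, 7.74 and 7.85 on KLF7 arrays 1 to 4, against 8.26, 8.21, 8.33 and 8.28 on control arrays. Each group spanned little more than 0.1 log2, and the groups did not overlap, as held in the lower direction for 2.38% of all genes. The Irak1 difference was -0.49 (SE 0.15, 1.41-fold lower, adjusted p 0.396 in limma), with values from -0.52 to -0.47 in fits that omitted 1 array.

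Myd88, the adaptor itself, was at 7.31, 7.54, 7.19 and 8.39 on KLF7 arrays 1 to 4, against 7.19, 6.66, 6.60 and 7.35 on control arrays. KLF7 4 was the highest, and the difference of 0.66 (SE 0.28, adjusted p 0.591 in limma) was 0.39 without it. Peli1, a ubiquitin ligase of the IRAK complex, was at 0.45 (SE 0.22) and Ikbke, a kinase that acts on interferon regulatory factors, at -0.48 (SE 0.24), both short of an unadjusted p of 0.05. Without KLF7 1, Peli1 was at 0.26.

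Of 11 measured inhibitors of the pathway, 7 had a higher mean and 4 a lower one, with a median of 0.20. Cyld, a deubiquitinase that restrains NF-kB, was the 1 member at an unadjusted p under 0.05 (0.52, SE 0.23, 1.43-fold), with groups that did not overlap. That 1 of 11 is near the shares of all genes, 8.21% at such a p and 5.22% with groups apart. Cyld was at 9.25, 8.29, 8.33 and 8.56 on KLF7 arrays, against 8.23, 7.95, 8.03 and 8.14 on control arrays, so KLF7 1 stood apart, and the difference was 0.30 without it. Tollip (0.24, SE 0.16) and Socs1 (0.27, SE 0.19), a pair of inhibitors of receptor and cytokine signals, and Pdcd4 (-0.36, SE 0.20), a repressor of translation, had unadjusted p-values above 0.05. Socs1 was at 0.14 without control 4 and 0.18 without KLF7 3.

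The interferon regulatory factors, some of which carry signals of the endosomal receptors to the nucleus, all had higher means, 6 of 6. Their median difference was 0.38 (0.23 without control 3 and 0.56 without control 4). Irf5, which acts with MyD88 downstream of TLR7 and TLR9, was at 9.37, 8.22, 8.20 and 8.94 on KLF7 arrays 1 to 4, against 7.89, 7.63, 7.38 and 8.11 on control arrays. Its groups did not overlap, and the difference was 0.93 (SE 0.29, 1.90-fold, adjusted p 0.410 in limma). Without KLF7 1 the Irf5 difference was 0.70, and without KLF7 3 it was 1.09. Irf4, a factor of lymphoid and dendritic cells that competes with IRF5 for MyD88, was at 8.66, 6.95, 6.98 and 8.13, against 6.75, 6.70, 5.29 and 6.71. The KLF7 arrays again lay above the control arrays, of which control 3 was far the lowest, and the difference was 1.31 (SE 0.44, 2.49-fold, adjusted p 0.448 in limma) and 0.96 without control 3. That 2 of 6 factors had groups apart in the higher direction compares with 2.83% of all genes. Irf8 (0.29, SE 0.19) and Irf7 (0.36, SE 0.25) had differences within the spread between arrays. Irf8 was at 0.19 without control 3 and 0.44 without control 4, and Irf7 at 0.14 without KLF7 2 and 0.56 without KLF7 3.

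Genes that such signalling induces in macrophages and dendritic cells had higher means in 17 of 21 cases, with a median of 0.33. At an unadjusted p under 0.05, 4 were higher and 1 lower, against 4.65% and 3.56% of all genes, and none passed over all genes. Omitting KLF7 1 gave a median of 0.18, and omitting KLF7 4 one of 0.63. Groups were apart in the higher direction for 2 of the 21, against 2.83% of all genes. Marcks, an actin-binding protein that lipopolysaccharide induces in macrophages, was at 9.82, 9.26, 8.50 and 8.86 on KLF7 arrays 1 to 4, against 8.01, 6.47, 7.20 and 7.72 on control arrays. The groups did not overlap, and the difference was 1.76 (SE 0.36, 3.39-fold, adjusted p 0.290 in limma). Without control 2 the Marcks difference was 1.47, and without control 1 it was 1.98. Tnfsf9, which encodes the ligand of the costimulatory receptor CD137, differed by 0.50 (SE 0.17) with groups apart.

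The differences of the genes for the 2 chains of interleukin-12 had opposite signs, a contrast that was not tested. Il12a, which encodes the p35 chain, was at 5.81, 6.33, 6.56 and 7.42 on KLF7 arrays 1 to 4, against 7.34, 7.61, 7.41 and 8.56 on control arrays. Arrays 4 were the highest in both groups, KLF7 4 lay above 2 control arrays, and the difference was -1.20 (SE 0.36, 2.30-fold lower, adjusted p 0.393 in limma). In a fit that treated the arrays numbered 4 as a batch, Il12a had the same difference and an adjusted p of 0.0428 in limma. The labels name no batch, and this alternative was chosen with earlier results of these data known. That fit passed 26 genes over all genes, against 0 in the fit with group as the only term. Il12b, which encodes the p40 chain, was at 5.80, 6.34, 5.99 and 5.10, against 5.41, 5.38, 5.17 and 5.17. KLF7 4 was the lowest of all 8, the difference was 0.52 (SE 0.23), and it was 0.35 without KLF7 2.

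**Figure D4:**
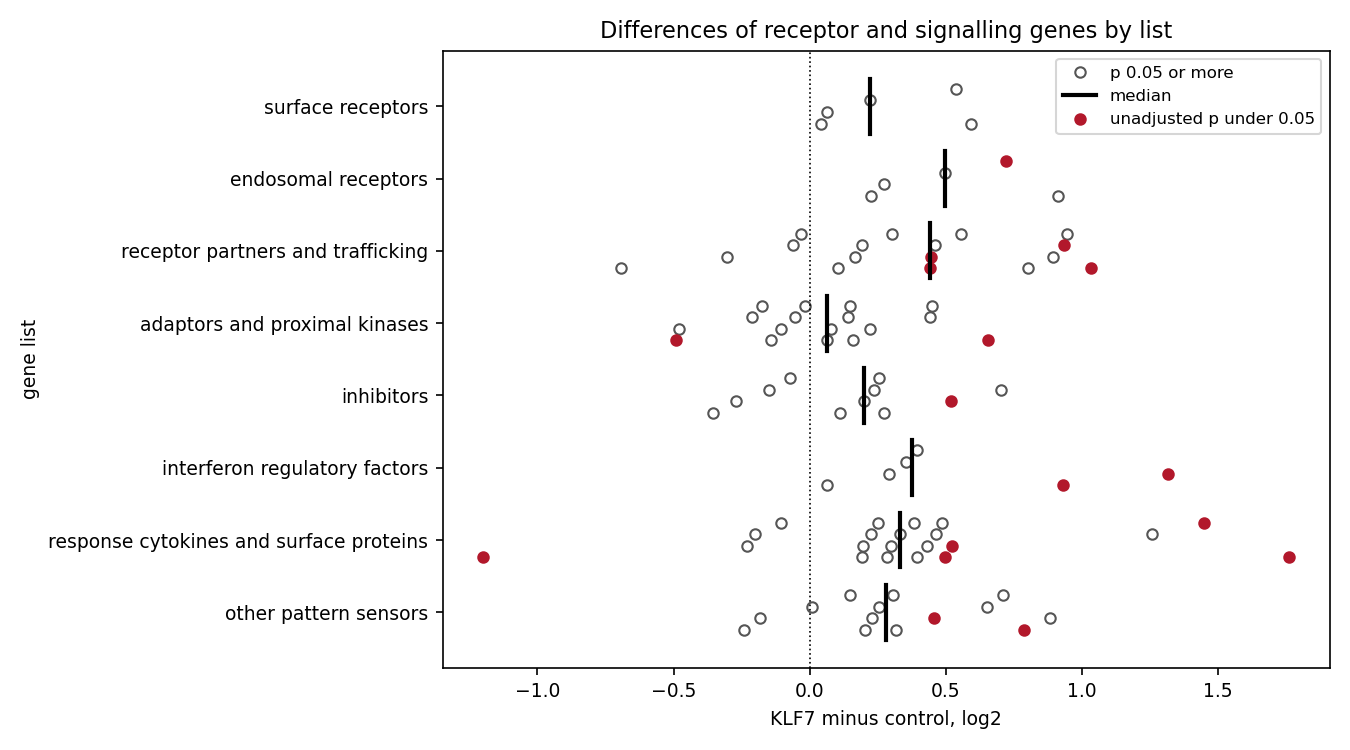
Difference of each measured gene, KLF7 minus control in log2 (horizontal axis), by list, with filled points for an unadjusted limma p under 0.05 and a bar at each list's median. The medians lie between 0.06 (adaptors and proximal kinases) and 0.50 (endosomal receptors).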

How the data were processed

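Per the submitters' processing notes, the authors made the deposited intensities with RMA in Affymetrix Expression Console, which corrects background, normalises between arrays and summarises probes. The sources used here give no versions. The intensity values ran from 2.20 to 15393 on a linear scale, so log2 was taken. Of 35554 probe sets, 21789 carried 1 gene symbol, and the one with the highest mean was kept for each of 19938 genes, with no filter on dim genes. Array medians lay between 46.2 and 54.1 intensity units, and the number of arrays limits the precision.

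The fit used all 8 arrays and limma 3.58.1 (R 4.3.3), lmFit and eBayes with an intensity trend, and group as the only term. All p-values are two-sided, and Benjamini-Hochberg adjustment over the whole table used a threshold of 0.05. In data simulated for KLF7 against control on 19938 genes, the fit found 62 of 100 genes altered 2-fold and 94 of 100 altered 4-fold. It gave 0 of them a wrong sign and called 5 unaltered genes. The simulated noise was independent between genes, without the deviations that the arrays numbered 4 shared. These counts therefore do not measure what the fit can find on the real arrays.

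The members, the gene lists and the alternatives were chosen with earlier results of these data known. The genes named are Klf7, the members, other Toll-like receptor genes, Ly96, Ly86, Cd14, Unc93b1 and Myd88, up to 4 genes per list by smallest p, the 2 genes nearest in pattern to each of the 3 members with the smallest p, and, where a marker list is described, at most 3 of its markers by level. One gene near in pattern is not reported here. Hlf was added after its values were seen. Of 91 pathway genes written, 86 were measured, and the others are not analysed here. Promoter windows were searched for fixed motifs. Figures were drawn with matplotlib 3.10.9. Alternatives left out arrays, used the replicate number as a block, arrays numbered 4 as a batch term, other normalisations, array weights, other priors, a filter on dim genes, other uses of probe sets, other tests and an added 16 intensity units.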

Additional observations from a re-analysis of the deposited data

Results flagged for a closer look

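Among the 45 genes named, 5 values lay far from the other arrays of their group by Dixon's criterion for groups of 4, out of 90 groups checked, where chance flags about 1 in 20. On the array labelled KLF7 1 these were Tlr2, at 8.62 against 7.53 to 7.70 on the other KLF7 arrays, Tlr3, at 5.01 against 4.56 to 4.61, and Slc15a3, at 10.05 against 7.93 to 8.22, all high. Socs1 was low on the array labelled control 4, at 6.09 against 6.59 to 6.65 on the other control arrays. Irf4 was low on the array labelled control 3, at 5.29 against 6.70 to 6.75.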

How the results depend on the processing

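Tlr9 kept its direction and an unadjusted p under 0.05 in all 24 alternatives, with differences between 0.59 and 0.87 and adjusted p-values between 0.0880 and 0.823. No member passed an adjusted p of 0.05 in any alternative. With the replicate number as a block, 5 of the 10 members had an unadjusted p under 0.05 (Tlr2, Cd180, Tlr8, Tlr9 and Tlr13). In that fit 90 genes passed over all genes, and 2691 of 19938 had an unadjusted p under 0.05. So did 34 of the 86 measured pathway genes, against 16 in the fit with group as the only term. Under that block Ly96, Marcks and Il12a passed (0.94, 1.76 and -1.20). The labels do not say that numbers pair the arrays, and same-numbered arrays did not all deviate from their group means together: the correlations were 0.35, -0.13, 0.36 and 0.70 for numbers 1 to 4. Arrays numbered 4 as a batch term gave 2 members (Tlr9 and Tlr13) and, over all genes, 26 past adjustment and 2459 at an unadjusted p under 0.05, with Il12a at -1.20 among the 26. Without both arrays numbered 4 there were 2 members (Tlr1 and Tlr9). Over 23 alternative fits, that one included, 1176 to 2691 of all genes had such a p. Leaving out each array in turn gave 1 to 3 of the 10 members at an unadjusted p under 0.05 (3 without KLF7 3 or control 4). In these fits 8 to 10 members were higher. Over all 19938 genes they gave 1209 to 1969 at such a p and 0 to 1 past adjustment. Of the 86 pathway genes, 7 to 19 had such a p (7 without control 3, 10 without KLF7 1 or control 2). That pathway count was also 10 without KLF7 2 and control 2 and in the ordinary two-sample test. The medians ranged over these fits from 0.25 to 0.57 for the 10 members, 0.14 to 0.37 for surface, 0.31 to 0.67 for endosomal receptors, -0.0572 to 0.0926 for adaptors and -0.00246 to 0.215 for inhibitors, both lowest without KLF7 1. The inhibitors' median was 0.0793 with array weights. With the dimmer 50% of genes left out, 5 members remained to be tested, all 5 higher. The surface median was then 0.54 because Tlr1 and Tlr6 dropped out. The endosomal median was 0.82 there, because Tlr3, Tlr7 and Tlr8 dropped out.

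Signs near 0 were not stable. Leaving out each array in turn, Tlr4 ranged from -0.0637 (without KLF7 1) to 0.198 and was negative without KLF7 1, KLF7 4, control 2 or control 4, Tlr6 from -0.0116 (without control 4) to 0.161, Tlr12 from -0.0422 (without control 3) to 0.105, Ly86 from -0.0999 (without control 3) to 0.791, Cd14 from -0.208 (without KLF7 1) to 0.562 and Unc93b1 from -0.222 to 0.176 (without KLF7 3). Without both arrays numbered 4, Tlr4 was at -0.116 and Tlr6 at -0.0358. Without KLF7 2 and control 2, Tlr4 was at -0.0267 and Cd14 at -0.0747. With array weights, Tlr4 was at -0.0717 and Unc93b1 at 0.0215. The cause of these changes was not tested.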

Other observations

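Sensors of microbes outside the Toll-like receptor family had a KLF7 mean above the control mean for 12 of 14 measured genes and a median difference of 0.28. At an unadjusted limma p under 0.05 there were 2, both higher, against 4.65% of all genes in that direction, and none passed over all genes. Omitting KLF7 4 gave a median of 0.17, and omitting KLF7 3 one of 0.44. Zbp1, which senses nucleic acids in the Z form, was at 7.85, 7.56, 7.39 and 8.23 on KLF7 arrays 1 to 4, against 7.37, 7.38, 6.37 and 6.74 on control arrays, and its groups did not overlap, the 1 such case of the 14, against 2.83% of all genes in that direction. The Zbp1 difference was 0.79 (SE 0.27), and it was 0.59 without control 3 and 0.93 without control 2. Nod2, a cytosolic sensor of bacterial cell wall fragments, differed by 0.46 (SE 0.18, adjusted p 0.526 in limma), with groups that overlapped. Nlrp3, the core of an inflammasome, was at 0.71 (SE 0.40), and at 0.33 without KLF7 1 and 0.46 without control 4. Cgas, a sensor of cytosolic DNA, was at -0.24 (SE 0.15), within the spread between arrays, and at -0.16 without KLF7 1.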
